A study of Mus musculus and Rattus norvegicus with 32 samples.

Results

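The interferon regulatory factor (IRF) and STAT genes Irf1, Irf2, Irf3, Irf5, Irf7, Irf8, Irf9, Stat2 and Stat3 were followed in mouse hearts and rat cardiomyocytes in which METTL5, a methyltransferase of ribosomal RNA, had been deleted or overexpressed. They were picked by gene symbol, with earlier results of these data known. Each of the 4 tables held all 9 of them, among 55487 genes in the mouse tables and 32883 in the rat table. The mice were C57BL/6. Hearts of 1-month-old METTL5-KO mice, which lacked the gene in the whole animal, were compared with hearts of Ctrl mice of that age. In METTL5-cKO mice, Cre driven by Myh6 removed the floxed exons 2 to 4 in cardiomyocytes, and the other cells of the heart kept the gene. METTL5-cKO and Ctrl hearts were compared at 3 months of age and, in a separate table, 4 weeks after transverse aortic constriction (TAC), which loads the left ventricle with pressure and which both genotypes received. The age label of the TAC hearts is also 3 months, the characteristics of the METTL5-cKO hearts give their genotype as Mettl5-KO, and the alleles of the Ctrl mice are not labelled. Neonatal rat ventricular cardiomyocytes (NRVMs) of Sprague Dawley rats at postnatal day 2, pre-plated against fibroblasts, were transduced with an adenovirus for GFP (AdGFP) or for the human METTL5 coding sequence (AdMETTL5) and then exposed to 20 μM phenylephrine (PE), an adrenergic agonist that makes cardiomyocytes grow, for 24 h. Both NRVM groups thus had a virus and PE. No source used here gives the viral dose of either group, so METTL5 and a difference between the virus preparations cannot be told apart. Each of the 8 groups had 4 libraries, 32 in all. The labels do not say whether these came from separate animals or cultures, so p-values measure the spread between these libraries.

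IRF proteins bind a short element in the promoters of interferon-induced genes, and STAT proteins carry the signal of cytokine receptors to the nucleus after JAK kinases phosphorylate them. IRF3 and IRF7 are activated by sensors of foreign nucleic acid and switch on the interferon genes. Interferon that binds its receptor then brings STAT2 and IRF9 together in the complex ISGF3, which raises many target genes, Irf7, Stat2 and Irf9 among them. IRF1 activates and IRF2 mostly restrains such targets, IRF5 and IRF8 are best known in macrophages and dendritic cells, and STAT3 works downstream of the gp130 receptors for the IL-6 family of cytokines, which are well studied in the stressed heart.

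All 9 genes matched a RefSeq promoter entry (GRCm38.p6, 12 promoters in all, each of 300 bases around a start site). Both strands were searched for GAAA, then NN, then GAAA, the core of the IRF element, and for TTCNNNGAA, the letters of the site that STAT dimers bind, which read the same on both strands. Across all 32851 mouse promoters, 3.44% held the former and 8.30% the latter. The IRF core was found for Irf2 (first base at -241 from the start site) and Stat2 (at -222, on the opposite strand). The STAT pattern was found for Irf1 (at -90), Irf2 (at -224) and Irf8 (at -171 and -153), and no match overlapped another. The windows of Irf3, Irf5, Irf7, Irf9 and Stat3 held neither, which says only that these letters were not in those 300 bases. The 250 bases before the start site are printed for 4 genes whose RNA differed in the comparisons below, 3 with a match in capitals and Irf7, which changed most. They are mouse sequences, and the NRVMs are rat cells. Irf1 is read at chr11:53769764-53770013 on the plus strand, Stat2 at chr10:128270248-128270497 on the plus strand, Irf8 at chr8:120736108-120736357 on the plus strand and Irf7 at chr7:141266425-141266674 on the minus strand.
Irf1: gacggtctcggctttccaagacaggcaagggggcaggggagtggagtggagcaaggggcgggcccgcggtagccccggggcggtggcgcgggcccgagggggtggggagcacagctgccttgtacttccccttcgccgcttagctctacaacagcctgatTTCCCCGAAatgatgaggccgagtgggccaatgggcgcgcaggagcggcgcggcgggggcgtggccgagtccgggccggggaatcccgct
Stat2: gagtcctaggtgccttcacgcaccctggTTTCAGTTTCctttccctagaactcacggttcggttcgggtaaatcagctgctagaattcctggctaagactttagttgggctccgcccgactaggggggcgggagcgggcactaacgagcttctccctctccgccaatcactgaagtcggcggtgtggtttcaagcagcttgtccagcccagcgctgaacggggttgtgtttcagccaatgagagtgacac
Irf8: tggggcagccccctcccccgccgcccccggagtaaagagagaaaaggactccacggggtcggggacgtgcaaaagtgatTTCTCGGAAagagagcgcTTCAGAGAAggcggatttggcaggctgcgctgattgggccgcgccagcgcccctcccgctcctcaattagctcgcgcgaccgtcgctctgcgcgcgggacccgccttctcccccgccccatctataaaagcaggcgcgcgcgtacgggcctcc
Irf7: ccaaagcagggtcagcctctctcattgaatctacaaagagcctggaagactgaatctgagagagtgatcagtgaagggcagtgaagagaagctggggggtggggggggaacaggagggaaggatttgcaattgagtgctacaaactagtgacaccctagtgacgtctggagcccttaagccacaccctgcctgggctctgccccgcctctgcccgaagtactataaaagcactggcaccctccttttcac

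The authors estimated the counts of each gene with StringTie. Total counts ran from 14324700 to 14642431 in the AdMETTL5 libraries, from 17344430 to 18085339 in the AdGFP libraries and from 19899033 to 21804907 in the heart libraries of the TAC table, with the other hearts inside that last range. No library of any group had fewer than 47 counts for any of the 9 genes. The whole-gene count of Mettl5 did not separate the genotypes (log2 fold changes of 0.22, -0.18 and -0.04 at 1 month, 3 months and after TAC, adjusted p = 0.973, 0.884 and 0.874 by the quasi-likelihood test of edgeR, with p-values adjusted by Benjamini-Hochberg over all genes, as in every such value that follows). In NRVMs the rat Mettl5 row had 16.2 to 18.0 CPM with AdGFP and 19.1 to 23.0 CPM with AdMETTL5 (log2 fold change 0.32, edgeR-adjusted p = 0.00295). Reads from the human sequence of the virus could not be told apart in that row, and the mouse rows count the whole gene and not the removed exons alone, so the groups rest on the labels. Cardiomyocyte marker genes (Myh6, Tnnt2, Actn2, Ryr2, Ttn and Myl3) summed to between 14834 and 29976 CPM (counts scaled to a common library size, with edgeR's TMM factors) in the hearts. In NRVMs the 5 of these markers in the rat table summed to 6649 to 16633 CPM, and 5 fibroblast markers still summed to 6972 to 9072 CPM.

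Levels were first compared between the genes within a group, in CPM per kilobase of exon. In Ctrl hearts after TAC the order was Irf3 (8.08 ± 0.853 CPM per kilobase, SD, n = 4), Stat3 (5.99 ± 0.647), Irf1 (4.62 ± 0.403), Irf7 (4.402 ± 0.460), Irf9 (3.62 ± 0.144), Stat2 (3.33 ± 0.471), Irf2 (2.22 ± 0.165), Irf5 (1.20 ± 0.161) and Irf8 (0.753 ± 0.130). The libraries of Irf1 and Irf7 overlapped, as did those of Irf9 and Stat2, and all other neighbours in this order were apart. At 1 month Irf7 stood first in Ctrl hearts with 10.7 ± 3.58 CPM per kilobase, within the range of Irf3 (10.1 ± 1.32), and Irf2, Irf5 and Irf8 were again the lowest 3. Irf5 and Irf8 were last in all 6 heart groups. The tables were scaled separately, so levels were not tested between ages or between operated and unoperated hearts.

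In hearts of 1-month-old mice, none of the 9 genes was called between METTL5-KO and Ctrl in edgeR over 16329 genes. The adjusted p ran from 0.973 to 0.998, none had an unadjusted p under 0.05, which 4.57% of all genes had, and DESeq2 also called 0. Of all genes tested, 0.00612% were called, and the groups did not overlap for 3.01% of all genes and for 0 of these 9. The largest estimates were those of Irf9 (log2 fold change 0.26, 95% confidence interval -0.12 to 0.65) and Stat3 (0.26, -0.0049 to 0.53). Stat3 had 47.5, 53.4, 45.7 and 50.5 CPM in the Ctrl libraries and 49.6, 58.1, 69.7 and 58.6 in the METTL5-KO libraries. A single METTL5-KO library lay inside the Ctrl range and the other 3 lay above it.

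In the young hearts Irf7 varied most inside the groups among the 9 genes, as it also did at 3 months (within-group SD 0.344 on the log2 CPM scale) and in NRVMs (0.446). Irf7 had 53.9, 33.5, 49.3 and 25.0 CPM in the Ctrl libraries and 52.3, 29.7, 29.8 and 53.5 in the METTL5-KO libraries. Both groups thus held libraries near 50 CPM and libraries near 30 CPM, and the means hardly differed (40.4 ± 13.5 and 41.3 ± 13.4, SD, n = 4, log2 fold change 0.03, standard error (SE) 0.286). The within-group SD of Irf7 was 0.496 on the log2 CPM scale, at 1 month, where the median gene had 0.240 and 86.5% of all genes had a smaller SD. In NRVMs 95.9% of all genes had a smaller SD than Irf7. Stat2 and Irf9, subunits of ISGF3, were both above their group means in 3 of the 4 libraries where Irf7 was high. Stat2 was 0.45 above its group mean (log2) in Ctrl library 3, 0.25 above in METTL5-KO library 1 and 0.23 above in METTL5-KO library 4. Irf9 was above its mean by 0.30, 0.38 and 0.13 in the same libraries, while in Ctrl library 1 Irf7 was 0.48 above, Stat2 only 0.06 above and Irf9 0.06 below. The neutrophil markers (S100a8, S100a9, Csf3r and Retnlg) summed to 1.83 to 50.8 CPM in the Ctrl libraries and 1.90 to 11.3 in the METTL5-KO libraries. Macrophage markers summed to 112 to 199 and 145 to 159 CPM. The 50.8 CPM was that of Ctrl library 1, and the other Ctrl libraries had at most 4.65 CPM. Ctrl library 1 stood apart from the others of its group (chi-square per degree of freedom 83.5 to 151, against 18.1 to 60.0 among those). With any 1 library left out, 0 of the 9 genes were called at 1 month. The part of the markers in the spread of Irf7, Stat2 and Irf9 was not tested.

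**Figure D1:**
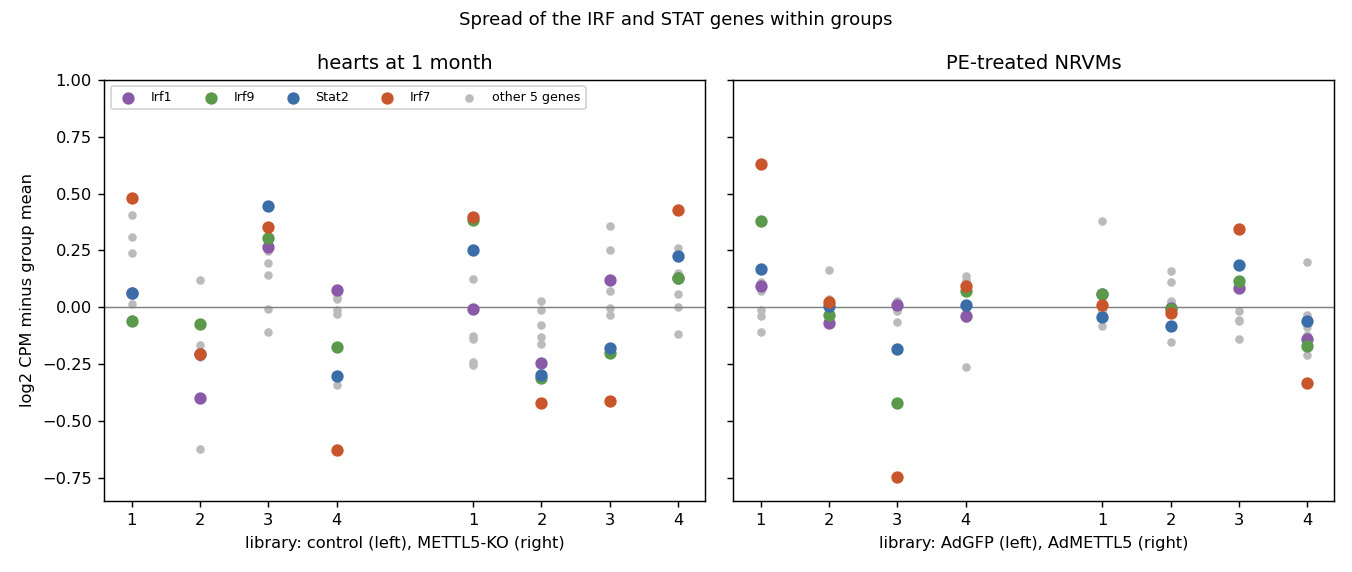
Deviation of each gene from the mean of its group (log2 CPM, y axis) in each library (x axis) of the 1-month hearts (left) and the PE-treated NRVMs (right); coloured points are Irf7, Stat2, Irf9 and Irf1, and small grey points are the other 5 genes. Irf7 spreads from 0.63 below to 0.48 above its group mean among the Ctrl hearts, and in NRVMs it spreads most among the AdGFP libraries.

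At 3 months, again none of the 9 genes passed the adjusted threshold in METTL5-cKO hearts (edgeR-adjusted p from 0.583 to 0.999 over 16391 genes, of which 0.0732% were called, 0.0488% as higher and 0.0244% as lower), and DESeq2 called 0. The groups overlapped for each of the 9 genes and were apart for 4.23% of all genes, and 0.0488% of all genes were called with an absolute log2 fold change over 1. At an unadjusted p under 0.05, which 7.05% of all genes met, 2 of them, Irf1 and Stat2, passed. Irf1 had 19.0, 18.1, 19.6 and 18.7 CPM in the Ctrl libraries and 14.9, 12.6, 12.7 and 18.7 in the METTL5-cKO libraries, a log2 change of -0.36 (SE 0.132, edgeR-adjusted p = 0.601). The Ctrl libraries lay close together, 3 METTL5-cKO libraries were below all of them, and METTL5-cKO library 4 was among them. Stat2 had 19.9, 18.6, 21.9 and 18.3 CPM in Ctrl and 12.2, 14.9, 13.7 and 19.2 in METTL5-cKO, a log2 change of -0.39 (SE 0.140, edgeR-adjusted p = 0.583). The same METTL5-cKO library was the highest for both genes, and the exact two-sided permutation test of each gave p = 0.0857. The other 7 genes had log2 fold changes between -0.26 (Irf7) and 0.13 (Irf5 and Irf8). The macrophage markers summed to 101 to 126 CPM in Ctrl and 130 to 171 CPM in METTL5-cKO hearts, the fibroblast markers to 355 to 468 and 453 to 591 CPM, and the endothelial markers to 423 to 668 and 331 to 503 CPM. No gene of any marker list was called at 3 months, and their part in these values was not tested.

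After TAC, 4 of the 9 genes were called between METTL5-cKO and Ctrl hearts: Irf1, Stat2 and Irf9 were lower and Stat3 was higher in METTL5-cKO. The adjusted test called 12.7% of all 16340 genes, 6.57% as higher and 6.1% as lower. These 2071 calls ranged from 479 (without Ctrl library 4) to 3899 (without METTL5-cKO library 4) when a library was left out, and METTL5-cKO library 4 stood apart from the other 3 of its group (chi-square per degree of freedom 33.8 to 40.3, against 8.93 to 19.0 among those). The groups were apart for 6 of the 9 genes, the called ones plus Irf5 and Irf7, and for 18.6% of all genes. None of the 4 had an absolute log2 fold change over 1, which 2.9% of all genes were called with, and 6 of the 9 had an unadjusted p under 0.05, against 31% of all genes. The median log2 fold change over the 9 genes was -0.20, against 0.00 over all genes tested. These are bulk samples, so fewer cells of a type and less RNA per cell cannot be told apart.

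Irf1 (ENSMUSG00000018899, chr11:53770014-53778374, plus strand, in GRCm38 as all positions here), an activator of interferon and antigen presentation genes, had 19.7, 16.05, 18.8 and 19.0 CPM in the Ctrl hearts and 12.3, 11.6, 10.99 and 12.7 CPM in the METTL5-cKO hearts. Each METTL5-cKO library was below each Ctrl library. The mean fell from 18.4 ± 1.60 to 11.9 ± 0.756 CPM (SD, n = 4), and the log2 fold change was -0.63 (SE 0.0887, edgeR-adjusted p = 0.00716). The exact two-sided permutation test gave p = 0.0286, the smallest that 4 libraries against 4 allow.

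Stat2 (ENSMUSG00000040033, chr10:128270559-128292849, plus strand), the STAT that is particular to type I and type III interferon signalling, had 21.1, 18.4, 22.8 and 16.5 CPM in Ctrl and 15.6, 11.8, 14.1 and 10.9 CPM in METTL5-cKO. The groups were apart by a narrow gap between Ctrl library 4 and METTL5-cKO library 1. Its log2 change was -0.59 (SE 0.138, edgeR-adjusted p = 0.0267). Irf9 (ENSMUSG00000002325, chr14:55603571-55610030, plus strand), the DNA-binding subunit of ISGF3, had 18.7, 20.3, 19.9 and 19.0 CPM in Ctrl and 16.1, 14.4, 15.7 and 12.9 CPM in METTL5-cKO. All METTL5-cKO libraries were lower, with a log2 change of -0.40 (SE 0.0857, edgeR-adjusted p = 0.0207).

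Stat3 (ENSMUSG00000004040, chr11:100885098-100939540, minus strand) had 64.8, 57.3, 49.7 and 56.6 CPM in Ctrl and 83.1, 78.6, 68.3 and 67.3 CPM in METTL5-cKO. The groups were apart, with Ctrl library 1 closest to the METTL5-cKO libraries. The log2 change of 0.38 (SE 0.103, edgeR-adjusted p = 0.0413) had the opposite sign to those of Stat2 and Irf9.

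The other 5 genes were not called. Irf7 (ENSMUSG00000025498, chr7:141262706-141266481, minus strand), which amplifies the interferon response, had 17.6, 15.6, 18.5 and 14.8 CPM in Ctrl and 14.4, 14.5, 11.03 and 10.6 CPM in METTL5-cKO, with a log2 change of -0.39 (SE 0.129, edgeR-adjusted p = 0.0736). Irf5 (ENSMUSG00000029771, chr6:29526625-29541871, plus strand), an IRF of macrophages, had 2.93, 3.31, 3.95 and 3.78 CPM in Ctrl and 4.65, 4.83, 4.37 and 4.49 CPM in METTL5-cKO, with a log2 change of 0.39 (SE 0.121, edgeR-adjusted p = 0.0616). For both the groups were apart, in opposite directions. Irf3 (ENSMUSG00000003184, chr7:44997648-45002848, plus strand) had a log2 fold change of -0.20 (confidence interval -0.42 to 0.01), Irf2 (ENSMUSG00000031627, chr8:46739732-46847458, plus strand) one of -0.14 (-0.36 to 0.08) and Irf8 (ENSMUSG00000041515, chr8:120736358-120756694, plus strand) one of 0.12 (-0.20 to 0.45), and their groups overlapped.

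**Figure D2:**
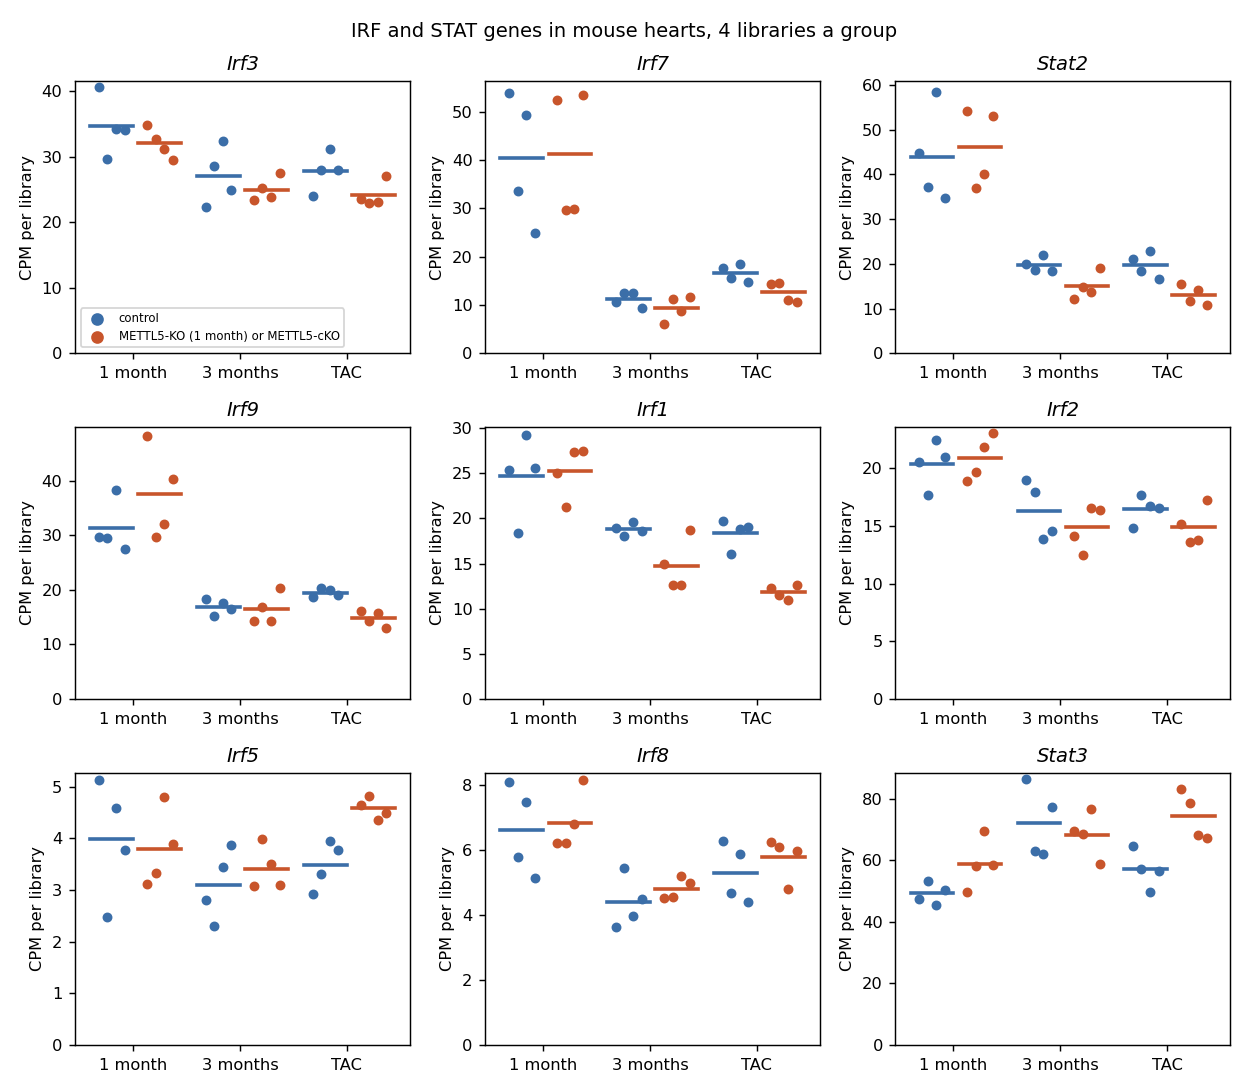
CPM of the 9 genes in each heart library (y axes start at 0, a scale for each gene) for Ctrl (blue) and METTL5-KO or METTL5-cKO (orange) at 1 month, 3 months and after TAC; short lines are group means, and each table was scaled by itself. After TAC the orange points of Irf1, Stat2, Irf9 and Irf7 lie below all blue points, and those of Stat3 and Irf5 lie above them.

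Of the 4 calls after TAC, that of Irf1 was the only one kept when any 1 library was left out. The count of called genes among the 9 was 1 without Ctrl library 2, Ctrl library 3 or METTL5-cKO library 2, where Irf1 alone was left, and 2 without Ctrl library 4 (Irf1 and Stat2) or METTL5-cKO library 3 (Irf1 and Irf9). Calls over all genes also fell in these fits, from 2071 of 16340 with all libraries. In the order given they were 696 of 16626, 1041 of 16656, 536 of 16551, 479 of 16638 and 1020 of 16510. With scaling by library size alone, which moved the median of all genes by 0.14 on the log2 scale, 2 were higher (Stat3 and Irf5) and 1 lower (Irf1).

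Marker genes of the cell types of the heart also differed after TAC, where 6.57% of all genes were called higher and 6.1% lower. Fibroblast markers (Pdgfra, Dcn, Col1a1, Col1a2, Tcf21 and Lum) summed to 467 to 574 CPM in Ctrl and 682 to 1631 CPM in METTL5-cKO, with 5 of 6 called higher. Endothelial markers (Pecam1, Cdh5, Kdr, Tek and Emcn) summed to 498 to 580 and 348 to 448 CPM, with 4 of 5 called lower. The 8 macrophage markers summed to 155 to 203 and 203 to 272 CPM, with 2 called higher, and the cardiomyocyte markers to 24267 to 28147 and 19492 to 23786 CPM, with 1 of 6 called lower. The lists of dendritic cells, neutrophils, B cells and T cells summed to at most 6.30 CPM in every library, and none of their genes was called. The part of these shifts in the changes of the IRF and STAT genes, and of the genes listed by role below, was not tested.

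Whether the genotype effect itself differed between operated and unoperated hearts was tested by an interaction term over the 16 libraries of both tables. None of the 9 genes was called (edgeR, 0.00586% of 17070 genes called), DESeq2 called 0, and Stat3 and Irf9 had an unadjusted p under 0.05. Without METTL5-cKO library 4 of the TAC table, 679 of 17353 genes were called in place of 1. For Stat3 the effect after TAC was 0.47 above that at 3 months (log2, SE 0.175, edgeR-adjusted p = 0.296). For Irf9 the difference was -0.34 (SE 0.154, edgeR-adjusted p = 0.403). For Irf1 and Stat2, which were called lower after TAC and not called at 3 months, the differences were -0.26 (confidence interval -0.59 to 0.07) and -0.18 (-0.62 to 0.26). The operation and the table cannot be told apart, since all operated hearts are in the same table.

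In PE-treated NRVMs 7 of the 9 genes were called between AdMETTL5 and AdGFP: Irf7, Stat2, Irf9, Irf1, Irf8 and Irf2 were higher and Irf3 was lower with AdMETTL5. In this comparison 52.8% of all 15041 genes were called, 27.1% as higher and 25.7% as lower, 58.2% had an unadjusted p under 0.05, and the groups did not overlap for 48.4% of all genes and for 7 of these 9. The median log2 fold change over the 9 genes was 0.85, against 0.00 over all genes. Of the 9 genes, 3 (Irf7, Stat2 and Irf9) were called with an absolute log2 fold change over 1, as were 5.85% of all genes.

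Irf7 changed most. It had 15.7, 10.2, 5.95 and 10.8 CPM in the AdGFP libraries and 198, 193, 248.9 and 156 CPM in the AdMETTL5 libraries. The lowest AdMETTL5 library was thus far above the highest AdGFP library, although the AdGFP libraries themselves varied widely. The mean rose from 10.6 ± 3.97 to 198.9 ± 38.2 CPM (SD, n = 4), which is a log2 fold change of 4.22 (confidence interval 3.77 to 4.68) or 18.7-fold, with an edgeR-adjusted p of 2.9e-08. In the exact two-sided permutation test p was 0.0286, its smallest possible value, here and for the 6 other called genes.

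Stat2 and Irf9, whose products are subunits of ISGF3, rose by similar amounts. Stat2 had 53.1, 47.5, 41.6 and 47.6 CPM with AdGFP and 158, 154, 185 and 156 CPM with AdMETTL5, a 3.44-fold rise (log2 fold change 1.78, SE 0.0788, edgeR-adjusted p = 1.5e-08). Irf9 had 28.3, 21.2, 16.2 and 22.8 CPM with AdGFP and 78.3, 74.8, 81.3 and 66.6 CPM with AdMETTL5, a 3.39-fold rise (log2 fold change 1.76, SE 0.126, edgeR-adjusted p = 4.2e-07). AdGFP library 3 was the lowest and AdMETTL5 library 3 the highest for Irf7, Stat2 and Irf9 alike.

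Irf1 had 22.9, 20.5, 21.6 and 20.9 CPM with AdGFP and 41.8, 40.1, 42.5 and 36.4 CPM with AdMETTL5, a log2 change of 0.90 (SE 0.0641, edgeR-adjusted p = 3.8e-07). Irf2, its antagonist at shared sites, had 25.9, 27.4, 27.8 and 30.7 CPM with AdGFP and 32.6, 36.9, 31.8 and 31.0 CPM with AdMETTL5, a log2 change of 0.24 (SE 0.0712, edgeR-adjusted p = 0.0126). The gap between the groups was wide for Irf1 and narrow for Irf2, between AdGFP library 4 and AdMETTL5 library 4.

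Irf8 was low in these cultures, with 3.56, 3.79, 3.44 and 2.79 CPM under AdGFP and 7.89, 5.44, 5.97 and 5.21 CPM under AdMETTL5, and it rose by 0.85 on the log2 scale (SE 0.153, edgeR-adjusted p = 0.000572). Irf5 had 4.93 to 5.64 CPM with AdGFP and 5.45 to 6.93 CPM with AdMETTL5. Its groups overlapped, and the log2 fold change of 0.22 (confidence interval -0.01 to 0.45) was not called (edgeR-adjusted p = 0.101). The macrophage markers summed to 61.1 to 72.0 CPM in AdGFP and 48.5 to 59.4 CPM in AdMETTL5 libraries. Of the 4 tested, 2 were called lower, where 25.7% of all genes were. Cd163 was at 0 in every library, and the part of these markers in the values of Irf5 and Irf8 was not tested. Of 5 dendritic cell markers, Flt3, Xcr1, Siglech and Cd209a were at 0 and Itgax was called higher (log2 fold change 0.67, edgeR-adjusted p = 0.00363).

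Irf3 and Stat3 did not follow the others. Irf3, the constitutive partner of IRF7 in nucleic acid sensing, had 74.7, 69.3, 66.2 and 67.0 CPM with AdGFP and 59.4, 65.1, 57.8 and 58.8 CPM with AdMETTL5, a fall of the mean from 69.3 ± 3.83 to 60.3 ± 3.30 CPM (SD, n = 4) and a log2 change of -0.20 (SE 0.0558, edgeR-adjusted p = 0.0092). Scaling by library size alone, which moved the median of all genes by 0.13, took the value of Irf3 to -0.07 and ended its call, and it brought in Irf5 (0.36, adjusted p = 0.0209), so that 7 genes were higher and 0 lower. Stat3 had 402 to 417 CPM with AdGFP and 354 to 417 with AdMETTL5. Its groups overlapped, and its log2 fold change of -0.08 had an interval of -0.19 to 0.04 (edgeR-adjusted p = 0.229).

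**Figure D3:**
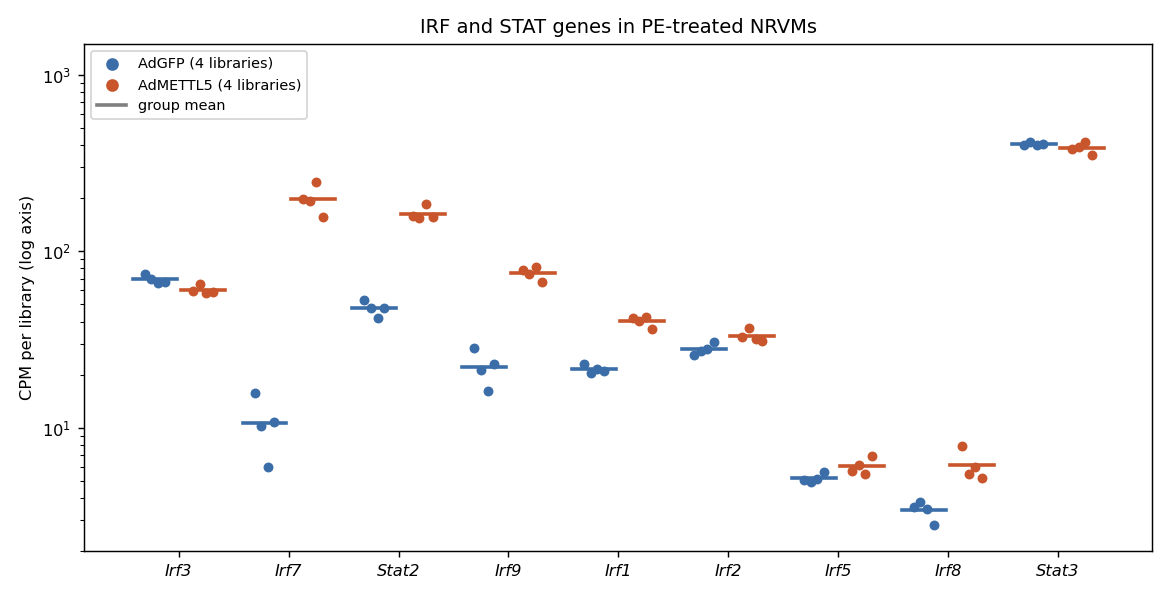
CPM of the 9 genes in each NRVM library (y axis, log scale) with AdGFP (blue) and AdMETTL5 (orange), 4 libraries each, all with PE; short lines are group means. Irf7 goes from 10.6 to 198.9 CPM on average, Stat2 and Irf9 rise more than 3-fold, and the points of Stat3 and Irf5 overlap.

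**Figure D4:**
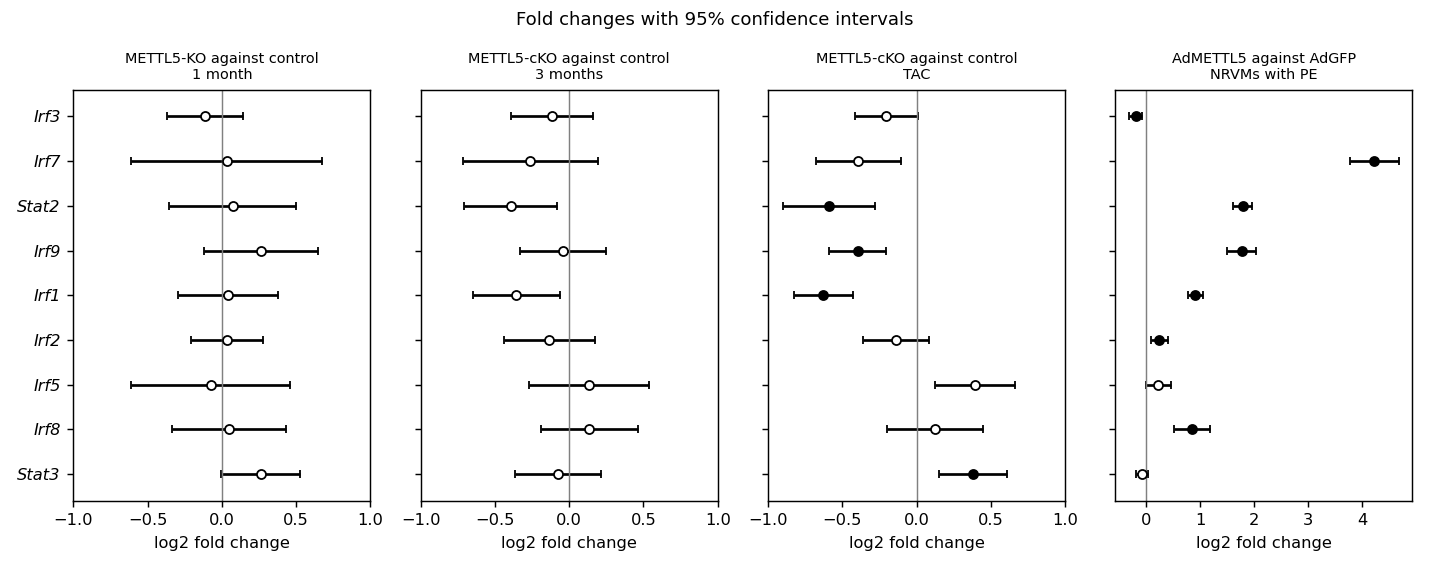
Log2 fold change (x axis, a wider range in the NRVM panel) of the 9 genes in the 4 comparisons, with 95% confidence intervals; filled points were called at an adjusted p under 0.05 in edgeR. No gene is filled at 1 month or 3 months, Irf1, Stat2 and Irf9 are filled below 0 and Stat3 above 0 after TAC, and Irf7 reaches 4.22 in NRVMs.

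Markers of other cell types were called in both directions in NRVMs, where 27.1% of all genes were called higher and 25.7% lower. The 5 cardiomyocyte markers in the table summed to 13788 to 16633 CPM in AdGFP and 6649 to 7420 CPM in AdMETTL5 libraries, with all 5 called lower, 4 of 5 fibroblast markers were called lower (8573 to 9072 and 6972 to 7696 CPM), and the endothelial markers summed to 34.9 to 38.5 and 47.8 to 52.8 CPM, with 1 of 3 tested, Kdr, called higher (log2 fold change 0.86). Smooth muscle markers (Myh11, Tagln, Acta2 and Cnn1) summed to 2677 to 3393 and 3204 to 3705 CPM, with 2 of 4 called higher. The T cell markers Cd3e, Cd3d and Cd3g were at 0 in all 8 libraries, and the B cell and neutrophil lists summed to at most 0.584 CPM. The part of these differences in the values of the IRF and STAT genes was not tested.

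The genes around them in the pathway were read from lists by role, which were chosen with earlier results of these data known. The interferon genes that were listed, 8 in the mouse tables and 7 in the rat table, were at the limit of detection. None of them passed the filter on low counts in any table. Summed over the 4 libraries of a group, none of them had more than 7 counts in hearts. In NRVMs none had more than 2 counts in either group (Ifnb1 1 with AdGFP and 2 with AdMETTL5). Other interferon genes were not looked up. Of the gp130 ligands, Il6 had 21 counts in all with AdGFP and 90 with AdMETTL5 and was called higher, and Lif rose from 12.2 ± 0.780 to 15.2 ± 1.33 CPM (SD, n = 4, log2 fold change 0.31, edgeR-adjusted p = 0.00693). After TAC only 1 of the 14 listed ligands passed the filter, with a log2 fold change of -0.52, and it was not called. Below the filter, Il6 had 0 counts in all in Ctrl and 8 in METTL5-cKO hearts after TAC, and Lif had 16 and 31. Differences in these low counts were not tested.

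The receptors and JAK kinases are read against the 52.8% of all genes called in NRVMs and the 12.7% called after TAC. In NRVMs 2 of 10 receptors were called higher, Il6st, which encodes gp130, by 0.23 and Ifnlr1 by 0.22 (log2), and 2 lower, Il11ra1 by -0.20 and Ifngr2 by -0.16, and 1 of 4 kinases, Jak2, was higher by 0.21. After TAC 2 of 12 receptors were higher in METTL5-cKO hearts, Ifngr1 by 0.38 and Il6ra by 0.47, and Jak3 was lower by -0.33. Neither Ifnar1 nor Ifnar2, the chains of the type I interferon receptor, was called in any comparison.

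Of the other IRFs and STATs, 2 of 6 tested were called lower and 0 higher after TAC (all genes 6.1% and 6.57%), among them Irf4, an IRF of lymphoid and myeloid cells (log2 fold change -0.87). In NRVMs 2 of 5 were called higher and 3 lower (all genes 27.1% and 25.7%), Stat6 (0.40) and Stat5b (-0.38) among them.

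Among 17 genes of the route that activates IRF3 and IRF7, 1 was higher and 1 lower after TAC, near the share of all genes called (12.7%), namely Traf3, an adaptor (log2 fold change 0.60, groups overlapping), and Ddx58, the RNA sensor RIG-I (-0.43). In NRVMs 8 of 15 tested were higher and 3 lower, where 27.1% and 25.7% of all genes were. Among the sensors, Ddx58 rose from 6.82 ± 1.91 to 55.5 ± 10.1 CPM (SD, n = 4, log2 fold change 3.02), Ifih1, the sensor MDA5, from 9.49 ± 2.26 to 57.3 ± 9.83 CPM (2.59) and Cgas, a DNA sensor, from 2.18 ± 0.376 to 6.31 ± 0.728 CPM (1.53).

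The interferon targets were the longest list. In NRVMs all 37 tested were higher with AdMETTL5, where 27.1% of all genes were, with a median log2 fold change of 2.86. Parp14 rose by 2.54, Lgals3bp by 2.35, Ifit2 by 2.13 and Eif2ak2, the kinase PKR, by 1.81 on the log2 scale. Oas2 was at 0 in every AdGFP library and at 2.23 to 4.00 CPM with AdMETTL5, a mean 16.2-fold above a floor of 3 counts per library. The floor used unscaled library totals and the AdMETTL5 mean was TMM-scaled, so this bound is only approximate. The median did not change with Oas2 at that bound. After TAC 17 of 41 targets were lower in METTL5-cKO hearts and 0 higher, where 6.1% and 6.57% of all genes were, with a median of -0.45. Rsad2 fell by 1.28, Cmpk2 by 1.15, Gbp5 by 1.05 and Parp14 by 0.67 on the log2 scale. The count of 17 was 11 without Ctrl library 3, 9 without Ctrl library 4 and 8 without METTL5-cKO library 2. Calls over all genes in these fits were 1041 of 16656, 479 of 16638 and 536 of 16551. None of the targets was called at 1 month or at 3 months by edgeR or DESeq2, where 1 and 2 of them had an unadjusted p under 0.05 in edgeR and the medians were 0.03 and -0.23.

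Of 18 STAT3 targets, 7 were higher in METTL5-cKO hearts after TAC, where 6.57% of all genes were, and 0 lower, with a median of 0.45. Serpina3n had 8.57 ± 1.97 CPM in Ctrl and 85.8 ± 43.1 in METTL5-cKO hearts (SD, n = 4, log2 fold change 3.32), Timp1 2.69 ± 0.825 and 20.4 ± 10.9 (2.93), Lcn2 8.48 ± 2.83 and 22.6 ± 5.57 (1.41) and Myc 3.07 ± 0.727 and 7.90 ± 2.12 (1.36). The spread among METTL5-cKO libraries was wide for Serpina3n and Timp1. The count of 7 was 4 without Ctrl library 4, where 479 of all 16638 genes were called. Fibroblast markers were also higher in METTL5-cKO hearts after TAC, and the part of cell types in the values of these targets was not tested. At 3 months edgeR called 0 of 18 and DESeq2 called 1, but 7 of 18 had an unadjusted p under 0.05 in edgeR, against 7.05% of all genes, and the median was 0.21. At 1 month both tools called 0, 3 of 18 had an unadjusted p under 0.05 and the median was -0.19. In NRVMs 9 of 16 were higher and 1 lower (all genes 27.1% and 25.7%), with a median of 0.15, and Myc (0.80), Bcl6 (0.78) and Cebpb (0.51) led.

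Of 16 negative regulators, 6 were higher and 4 lower in NRVMs, where 27.1% and 25.7% of all genes were, and after TAC 1 was higher and 1 lower, where 6.57% and 6.1% were. Usp18, an interferon target that blocks the type I receptor, rose from 4.88 ± 3.15 to 77.8 ± 19.7 CPM in NRVMs (SD, n = 4, log2 fold change 4.00) and fell from 3.96 ± 0.327 to 2.74 ± 0.266 CPM in METTL5-cKO hearts after TAC (-0.53). Socs1 rose by 1.61 and Socs2 fell by 1.11 on the log2 scale in NRVMs, and after TAC Ptpn1 rose by 0.40.

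**Figure D5:**
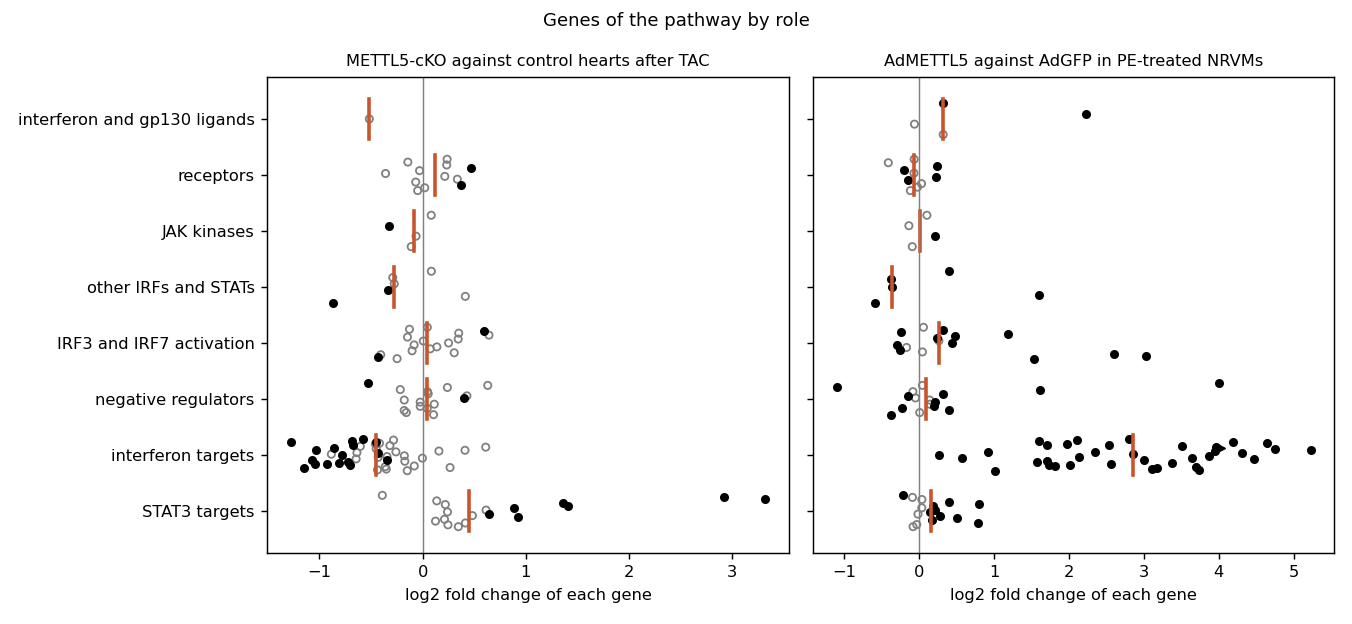
Log2 fold change (x axis) of each tested gene of 8 lists by role, after TAC (left) and in NRVMs (right, another range). Filled points were called in edgeR, orange bars are list medians, and the arrowhead is the approximate lower bound of Oas2. The interferon targets lie mostly below 0 after TAC, with 17 of 41 called lower, and all 37 lie above 0 in NRVMs.

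The genes whose levels ran closest to a called gene over the 24 heart libraries were sought among 17597 genes, as the smallest mean absolute difference of log2 CPM after centring on each table. For Irf1 these were Tap2, Parp14 and Slfn5 (differences of 0.112 to 0.124, where Irf1 itself deviated by 0.230 from its table means on average), for Irf9 Parp12, Parp9 and Ddx58 (0.112 to 0.117, own deviation 0.186) and for Stat2 Parp14, Ifih1 and Gbp7 (0.130 to 0.135, own deviation 0.259). For Stat3 they were Rad23b, Itsn1 and Hspa4 (0.0783 to 0.0788, own deviation 0.171). Genes of the same library share its depth and scaling, and no test was made. Centring on the table also left the genotype difference in, so genes with a like shift between the genotypes come out close.

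Reads that another gene shares were checked last. In the mouse annotation an exon of Irf1 overlaps Gm17334, of Irf3 Bcl2l12, of Irf5 Tnpo3, of Irf7 Phrf1 and of Stat3 Stat5a, each on the other strand, and an exon of Irf9 overlaps Rnf31 on the same strand. No source used here states whether the libraries kept strand, so counts of these pairs are uncertain to that extent. None of the 6 neighbours was called in any heart comparison. After TAC Rnf31 had a log2 fold change of -0.28 (edgeR-adjusted p = 0.0718), in the direction of Irf9. Its groups did not overlap, as for 18.6% of all genes. Bcl2l12 had one of -0.32 (edgeR-adjusted p = 0.134), in the direction of Irf3, with overlapping groups. Stat5a had one of -0.27, opposite to Stat3. Gm17334 had 0.555 ± 0.465 CPM in Ctrl and 0.492 ± 0.287 CPM in METTL5-cKO hearts (SD, n = 4).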

How the data were processed

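RNA was measured in 32 libraries of 8 groups. The authors aligned the reads with HISAT2 (version 2.0.4 in the submitters' processing notes) and deposited estimated counts per gene from StringTie (2.1.4), on GRCm38 for mouse and Rnor_6.0 for rat. The values were whole numbers, so rounding them changed nothing, and the tests planned for plain counts were run on them. Rows without a symbol (396 of the rat table) stayed in the fit.

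The 4 tables were fitted one at a time, with all their genes, by the quasi-likelihood test of edgeR 4.0.16 under R 4.3.3. Library sizes were scaled by TMM, filterByExpr kept genes with a count of 10 or more in enough libraries and 15 in total, p-values were adjusted by Benjamini-Hochberg, and a gene was called at an adjusted p under 0.05. Single genes were also compared by the exact two-sided permutation test of mean log2 CPM (prior count 2) over 70 relabellings. The interaction was fitted over the 3-month and TAC tables together. DESeq2 1.42.0 was an alternative. CPM per kilobase used the union of exons in the GENCODE annotation of GRCm38. The fitting code was tested on simulated data.

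Libraries are numbered 1 to 4 within a group, by the label at 1 month and for AdMETTL5 and otherwise in ascending order of the number in the column name. No pair of libraries agreed within sampling noise (smallest chi-square per degree of freedom 2.16 over 48 pairs). Named were the 9 genes, up to 4 called genes of each list and comparison with the smallest adjusted p, and for each of the 9 called in a heart comparison the 3 genes closest to it. Oas2, Ifnb1, Ifnar1, Ifnar2, the overlapping neighbours and single markers were named after their values were seen. Members and lists were chosen with earlier results of these data known. Some genes of the lists are counted but not reported by name here. Rat promoters and protein sequences were not used here.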

Additional observations from a re-analysis of the deposited data

Results flagged for a closer look

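In 72 groups of 4 libraries (9 genes in 8 groups), the highest and the lowest library were compared with the others, and 2 stood apart by Dixon's ratio of the gap to the range, at its 95% critical value, where chance alone flags about 1 group in 20. Irf3 had 27.1 CPM in METTL5-cKO library 4 after TAC, against 22.9 to 23.6 CPM in the other 3 libraries (ratio 0.8291). Stat2 had 185 CPM in AdMETTL5 library 3, against 154 to 158 CPM in the other 3 (ratio 0.860). The causes were not tested.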

How the results depend on the processing

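Of the values of single genes under other settings, 221 kept direction and side of the threshold, 6 lost the call, 2 gained it and 5 changed sign; with libraries left out in turn, 381 kept both, 15 lost the call and 36 changed sign. After TAC, 4 genes were called, against 1 with no filter on low counts and 0 when an absolute log2 fold change over 1 was also asked, and between 1 and 4 with a library left out. In NRVMs that size limit left 3 of 7, and at 3 months an unadjusted p under 0.05 gave 2 against 0. Irf1 after TAC was called under every setting without the size limit. Irf9, Stat2 and Stat3 after TAC had adjusted p of 0.0519, 0.0643 and 0.0675 with no filter, and Irf9 and Stat2 had 0.178 and 0.0910 with library size alone. That scaling took all genes after TAC from 1074 higher and 997 lower to 2060 and 524, and in NRVMs from 4082 and 3867 to 5872 and 2343. It also turned Irf9 at 3 months (0.00640), Stat3 in NRVMs (0.0568) and the interaction of Irf3 (0.00197), and the interaction of Irf8 was -0.00373 with DESeq2's size factors and -0.000695 with no filter. With a library left out, values crossed 0 at 1 month for Irf1 (-0.075 to 0.13), Irf2 (-0.027 to 0.081), Irf5 (-0.25 to 0.082), Irf7 (-0.14 to 0.21), Irf8 (-0.058 to 0.17) and Stat2 (-0.022 to 0.24), at 3 months for Irf9 (-0.16 to 0.017) and Stat3 (-0.15 to 0.021), and in the interaction for Irf2 (-0.076 to 0.082), Irf3 (-0.17 to 0.0093) and Irf8 (-0.11 to 0.085). Lower interferon targets after TAC numbered 8 to 18 and higher STAT3 targets 4 to 8, and the NRVM count of 37 did not move. Calls over all genes after TAC ranged from 479 to 3899 with a library left out. The causes were not tested.

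Over all genes, DESeq2 called 12 against 1 at 1 month, 96 against 12 at 3 months and 234 against 1 for the interaction, and the fit with no filter called 1 at 3 months and 1052 against 2071 after TAC. At 1 month the replicate block called 0 of the 9 genes and 1 gene in all. Libraries with the same number correlated by 0.239, 0.1196, -0.107 and 0.0782, and those with different numbers by -0.283 to 0.194. These ranges overlap, and so few values cannot decide whether the numbers pair the libraries. No paired analysis was possible because the columns of the other tables carry no shared replicate numbers.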
